A study of Mus musculus with 4 samples.

Results

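The cells described here are interstitial fibroblasts of the mouse testis, chosen by a gate on marker genes in droplet single-cell transcriptomes. A barcode was kept with at least 200 detected genes and at most 20% of its UMIs (unique molecular identifiers, counted mRNA molecules) in mitochondrial genes. A kept cell was a member if at least 3 of the 8 genes Pdgfra, Dcn, Col1a1, Col1a2, Col3a1, Lum, Tcf21 and Mgp had a UMI and if their sum was at least 10 per 10000 UMIs. In addition, the Leydig cell genes Insl3, Cyp17a1 and Cyp11a1 together had to stay below 20 per 10000 UMIs. The gate selected 257 of 57727 kept cells. These were 55 cells in the first library labelled HFD, for high-fat diet (HFD 1), 61 in HFD 2, 67 in the first library labelled ND, for normal diet (ND 1), and 74 in ND 2.

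The study compared testis cells of mice fed a high-fat diet with those of mice fed a normal diet, in 2 libraries each. For both diets the albuginea, the outer capsule, was taken off, the tissue was dissociated with enzymes, and libraries were made with 10x Genomics 3′ version 3 chemistry, so a level counts 3′ ends and does not scale with transcript length. The labels name the groups HFD and ND. Strain, age, diet composition and the length of feeding are not given in the labels used here, and nothing states that the libraries came from separate mice, so p-values measure the spread between these libraries.

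Testicular fibroblasts lie in the interstitium between the seminiferous tubules, among Leydig cells, vessels and macrophages. They lay down fibrillar collagen, the small proteoglycans that space it and the proteases that turn it over. Pdgfra and Tcf21 also mark stromal cells from which Leydig and peritubular cells can arise, and the stroma shapes local retinoid and growth factor signalling.

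Members were shallow cells. Their median was 2273, 1988, 1763 and 1871.5 UMIs (HFD 1, HFD 2, ND 1, ND 2; every set of 4 values here has this order), against 6178, 6086, 5744 and 6189 in all kept cells. The smallest barcode held 1638, 1468, 1141 and 1171 UMIs, so the members lay close to a lower limit of depth that differed between the libraries. Summed over members, a library held 147644 to 207397 UMIs. A level is given as CPM, UMIs per 1000000 of that sum, and 1 UMI was therefore worth between 4.82 and 6.77 CPM. Pairs of libraries shared 42 to 65 barcode sequences (0.310 to 0.465% of the smaller library), and 4 members were called doublets.

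Dcn led the selecting genes. It encodes decorin, a proteoglycan that binds collagen fibrils, and lies on chromosome 10 at 97479609 to 97518143 (GRCm38, GENCODE M21). Dcn had 562, 560, 623 and 811 UMIs, or 3806, 3760, 3908 and 3910 CPM, and was found in 52 of 55, 59 of 61, 62 of 67 and 72 of 74 members. Its level was nearly the same in every library. Mgp, matrix Gla protein, an inhibitor of mineral deposition, stood at 1185, 1054, 1524 and 1230 CPM (175, 157, 243 and 255 UMIs).

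The fibrillar collagen chains followed. Col1a2 had 576, 470, 740.2 and 656 CPM, Col3a1 had 332, 349, 307 and 279.7 CPM, and Col1a1 had 189.6, 87.3, 232 and 198 CPM. The Pdgf receptor chain Pdgfra stood at 366, 322, 376 and 284 CPM and the transcription factor Tcf21 at 74.5, 60.4, 100.4 and 111 CPM. Lum, lumican, a second small proteoglycan, was the rarest, with 0, 4, 10 and 22 UMIs in 0, 2, 4 and 6 members. Of the 8 selecting genes, Dcn, Mgp, Col1a1, Col1a2, Tcf21 and Lum were lower in both HFD libraries than in both ND libraries, Col3a1 was higher in both, and Pdgfra overlapped. Over all other genes with at least 10 UMIs in members, 17.3% lay below without overlap and 17.7% above. The 8 selecting genes took part in choosing the cells, so their levels are a description with no test.

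**Figure D1:**
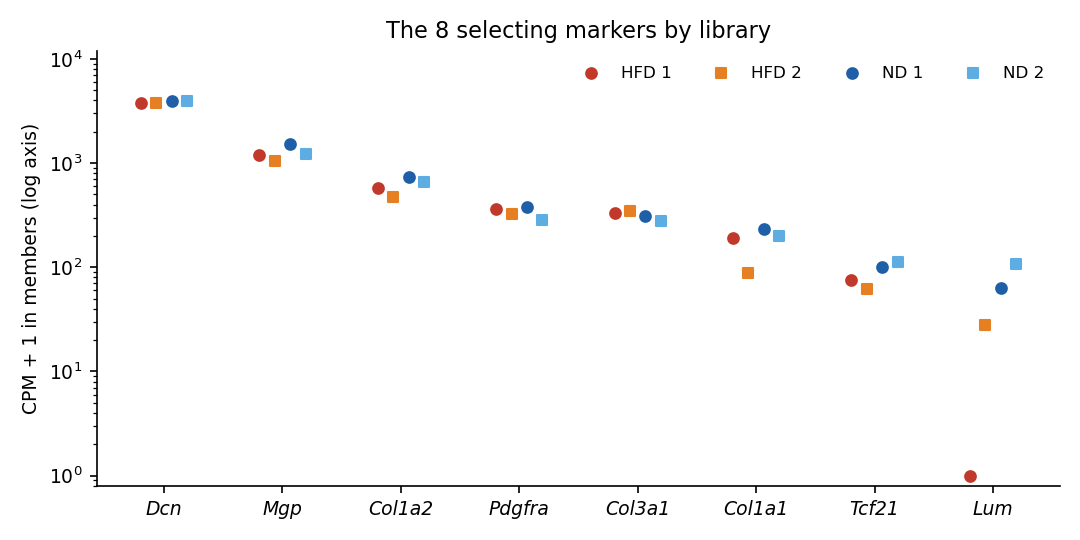
Level of each of the 8 selecting genes in the members of each library (y axis, CPM + 1, log scale; 1 point per library, HFD 1, HFD 2, ND 1 and ND 2). Dcn lies between 3760 and 3910 CPM in the 4 libraries, whereas Lum ranges from 0 to 106 CPM.

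Near the limits of the gate, 14, 30, 20 and 23 members carried exactly 3 of the markers, with a median marker sum of 38.8, 32.9, 40.7 and 31.3 per 10000 UMIs. Just outside, 13, 11, 18 and 13 cells carried 2 markers, with medians of 15.4, 20.4, 18.1 and 22.4 per 10000. A further 13, 11, 22 and 16 cells carried at least 3 markers but fell short on the sum, counted without regard to the Leydig limit. The highest of them stood at 9.93 per 10000, while the lowest sums of members were 14.2, 11.1, 11.9 and 11.02. The Leydig limit left out 1, 2, 6 and 12 cells that met the other conditions.

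Fibroblast genes that the gate did not use were present in members. All 15 of that marker list had UMIs, and their sum was 5723, 4774, 5608 and 5516 CPM, against 1009 to 1094 CPM in Leydig cells and 51.2 to 59.4 CPM in Sertoli cells chosen by gates of their own. Gsn, gelsolin, which severs actin filaments, gave most of it, with 3366, 2551, 3237 and 3221 CPM. Clec3b, tetranectin, a plasminogen-binding protein of the matrix, stood at 244, 289, 169 and 333 CPM. Pcolce, also on the list, went the other way against Leydig cells (158 against 644 CPM), and Cxcl12 was near their level (200 against 155 CPM). The list was uneven. Serping1, Igf1 and the microfibril protein Mfap5 averaged 609.8, 375 and 107 CPM. Its 4 rarest genes were Fbln2, with 0, 2, 1 and 2 UMIs, Dpt, dermatopontin, with 0, 3, 4 and 0, Fbln1, fibulin 1, with 2, 2, 3 and 2, and Pi16, a marker of adventitial fibroblasts, with 6, 5, 4 and 7.

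Other somatic cell types left few UMIs in members, though several of their marker sums were above those of the other kept cells. Smooth muscle genes that define peritubular myoid cells were uneven. Acta2 had 0, 5, 11 and 0 UMIs and Myh11 had 0, 0, 6 and 0, while Mylk had 11, 9, 18 and 11, Actg2 had 8, 5, 18 and 22 and Des had 7, 4, 4 and 6. The whole myoid list summed to 189.6, 161, 408 and 207 CPM (8 of 8 markers with a UMI). The pericyte genes Rgs5 and Notch3 were at 0, as was the endothelial gene Emcn. Of the pericyte markers 4 of 7 had a UMI, with 20.3 to 81.5 CPM in sum. That sum averaged 39.4 CPM in members, against 0.83 in Leydig cells, 1.27 in Sertoli cells and 1.45 in the other kept cells. Endothelial markers (6 of 7 with a UMI) summed to 27.1, 33.6, 81.5 and 33.8 CPM, and ND 1 was again the highest. Among them Cdh5 had 4, 3, 7 and 7 UMIs. The endothelial sum averaged 44.0 CPM in members, against 7.28, 7.76 and 12.2 CPM in Leydig, Sertoli and the other kept cells. The 8 macrophage markers summed to 6.77, 13.4, 18.8 and 24.1 CPM with 2 of them at 0, and the 7 lymphocyte markers to 18.8 to 20.3 CPM with 5 at 0. These sums averaged 15.8 and 19.6 CPM in members, below the 40.8 and 23.4 CPM of the other kept cells. Of the 6 mesothelial or tunica markers 5 were at 0. The 8 Sertoli markers summed to 67.7, 73.9, 94.1 and 116 CPM in members, and Aard had the most UMIs of them in each library (7, 4, 9 and 15). The Sertoli sum averaged 87.8 CPM in members against 11.5 in the other kept cells, and the myoid sum 241 against 162. The 6 Leydig markers summed to 183, 114, 100 and 198 CPM in members. Their mean was 149 CPM, against 22.5 in the other kept cells and 15035 in Leydig cells.

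RNA of spermatids was abundant by comparison. The 8 spermatid genes, among them the protamine gene Prm1, summed to 18504, 24050, 20757 and 26727 CPM in members, against 9725 to 11364 in Leydig cells, 74957 to 95439 in Sertoli cells and 32202 to 38435 in the other kept cells. Genes that were at least 2 times higher in members than in the other kept cells held only 20.1 to 22.4% of member UMIs. The remaining UMIs fell in genes whose level in members was below 2 times that of the other kept cells, and the part of free RNA in them was not tested.

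Against Leydig cells, their steroid-making neighbours, the members differed in many genes in each direction. The Leydig gate held 1386 cells. Of 10202 genes tested with edgeR (quasi-likelihood test on UMI sums with the library as a block, Benjamini-Hochberg adjusted p under 0.05), 1929 were higher in members (18.9%) and 2437 lower (23.9%). Against 864 cells of the Sertoli gate, 1478 of 7888 genes were higher (18.7%) and 1762 lower (22.3%). The genes that chose either class were left out of these counts. Class comparisons rest on cells gated by other genes of the same profiles, so they describe the gated cells.

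Cd248, endosialin, a surface protein of stromal cells on chromosome 19 (5068078 to 5070682), had 115, 114, 151 and 96.4 CPM in members and 0 UMIs in Leydig cells. It was at least 369.5-fold higher, with the Leydig level set at 3 counts over the group. Adamts5, a protease that cuts proteoglycans, had 1036, 846, 740.2 and 636 CPM in members and 0.740 CPM on average in Leydig cells (log2 difference 9.54, SE 0.24). Ltbp4, which anchors latent TGF-β in the matrix, had 522, 309, 514 and 386 CPM against 0.710 CPM (8.68, SE 0.26). All 3 genes separated the classes without overlap in every library. Further leading genes were Ccn2, a matricellular target of TGF-β signalling, with 165 CPM against 0.263, Thbd, thrombomodulin, with 186 against 0.354, and Cd34, a surface sialomucin of stromal and vascular cells, with 290.0 against 1.02. S100a6, a calcium-binding protein, Rarres2, the chemerin precursor, and the LIM protein Fhl2 completed the list at 719.9, 268 and 235 CPM.

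The genes lowest in members relative to Leydig cells were headed by genes without any UMI in them. Pgbd5, a transposase-derived gene, averaged 249 CPM in Leydig cells and was at least 54.0-fold lower in members. Igfbp2, an insulin-like growth factor binding protein, was at least 24.9-fold lower. Lcn2, lipocalin 2, had 20.3, 13.4, 43.9 and 19.3 CPM in members and 10445 ± 915 CPM (SD, n = 4) in Leydig cells, a log2 difference of -9.08 (SE 0.16). Klk1b24 also had 0 UMIs, but belongs to a family of near-identical kallikreins between which reads may be split. Snhg11, Bpifb5, Gstm7, Rarres1 and Hao2, at 0 UMIs, and Serpina3g, at 1 UMI, made up the remainder.

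Several of these stromal genes had no UMI in Sertoli cells. Rarres2 and Fhl2 had 0 UMIs in them, as had Ebf1, a transcription factor of stromal and B cells (332, 201, 194 and 275 CPM in members), and the members were at least 361-, 321- and 337-fold higher. Thbd, Cd200 and Itih5 were also at 0 in Sertoli cells. Bgn, biglycan, had 369 CPM in members against 0.240, Serping1, the inhibitor of complement C1, 609.8 against 0.758, and Sparcl1, a matricellular protein, 444 against 0.5004. Genes higher in Sertoli cells included Tsx, at 0 UMIs in members and at least 122-fold lower, and the cystatin Cst12, with 3 UMIs in members against 1069 CPM. Tslrn1, Basp1, Gstm7, Etd, Bex4, Uchl1, 1700011M02Rik and Gm9112 were the others, each with 2 UMIs or fewer in members.

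Matrix genes stood out by role. Among further collagens, 7 of 8 tested genes were higher in members than in Leydig cells and 0 lower, and 6 of 7 were higher than in Sertoli cells, where the shares of all genes higher in members were 18.9% and 18.7%. The median log2 difference was 3.39 against Leydig cells and 4.97 against Sertoli cells, where the medians of all tested genes were -0.02 and 0.04. Col6a1, a chain of beaded-filament collagen, had 154 CPM in members against 34.9 in Leydig cells, and Col15a1, a basement membrane collagen, 109 against 1.23. Of the matrix glycoproteins, 19 of 20 were higher than in Leydig cells and 17 of 17 higher than in Sertoli cells. The exception was Sparc, osteonectin, with 773 CPM in members, 1218 in Leydig cells and 313 in Sertoli cells.

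Genes that process collagen were mixed against Leydig cells, with 5 of 14 higher and 7 lower beside 18.9% and 23.9% of all genes. Against Sertoli cells 9 of 10 were higher, beside 18.7% of all genes. The collagen chaperone Serpinh1 was higher than in Leydig cells (163 against 8.76 CPM), while Pcolce, which enhances the removal of procollagen ends, was lower (158 against 644 CPM). Among matrix proteases and their inhibitors 5 of 12 were higher and 3 lower than in Leydig cells, the lower share being near that of all genes, and Timp2, a metalloprotease inhibitor, was among the lower genes (705 against 1169 CPM). Against Sertoli cells 7 of 8 were higher, and the lysosomal protease Ctsl was the 1 lower gene. TGF-β and contractile genes gave 8 of 13 higher and 1 lower (Tpm2) than in Leydig cells, and 9 of 11 higher and 1 lower (Myl9) than in Sertoli cells.

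Insulin-like growth factor genes were the most abundant of the signalling lists. Igfbp6, a binding protein with preference for Igf2, had 1314, 1423, 1543 and 1485 CPM in members against a mean of 173 CPM in Leydig cells. Igf1 itself had 386, 349, 445 and 318 CPM against 9.64 CPM. Igfbp7 averaged 669 CPM in Leydig cells and 671 CPM in members, and after TMM scaling it was called lower in members (log2 difference -0.33, SE 0.093). Growth factors and receptors gave 9 of 20 genes higher and 7 lower than in Leydig cells (all genes 18.9% and 23.9%), and 14 of 15 higher than in Sertoli cells (all genes 18.7%).

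For the next lists the shares of all genes are again 18.9% higher and 23.9% lower than in Leydig cells, and 18.7% higher and 22.3% lower than in Sertoli cells. Complement genes gave 6 of 11 higher and 3 lower than in Leydig cells, the latter near the share of all genes, and 8 of 9 higher than in Sertoli cells, where Clu was lower. Of the cytokine and adhesion genes 5 of 17 were higher and 8 lower than in Leydig cells. The adhesion molecule Vcam1 was in the latter group (244 CPM against 1578). Lipid genes were mostly higher in Leydig cells, with 6 of 35 higher and 25 lower in members. Fabp3, a fatty acid carrier, stood at 319 CPM in members against 9670 in Leydig cells, whereas Apoe, a lipid transport protein, was higher in members (2149 against 1135 CPM). Antioxidant and folding genes gave 1 of 31 higher and 22 lower than in Leydig cells. Against Sertoli cells the balance of these 3 lists was the other way, with 8 of 11 cytokine and adhesion genes higher and 1 lower, 8 of 23 lipid genes higher and 5 lower, and 12 of 28 antioxidant and folding genes higher and 5 lower.

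Retinoid genes differed in opposite ways within the list, with 2 of 6 higher and 3 lower than in Leydig cells (all genes 18.9% and 23.9%). Cyp26b1, the enzyme that breaks down retinoic acid (chromosome 6, 84571414 to 84593908), had 528, 571, 872 and 656 CPM in members and 0.966 CPM in Leydig cells. Aldh1a1, which makes retinoic acid, had 637, 571, 401 and 583 CPM in members and 2811 CPM in Leydig cells. Members thus held more RNA of the degrading enzyme and less of the synthesising one than Leydig cells did.

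**Figure D2:**
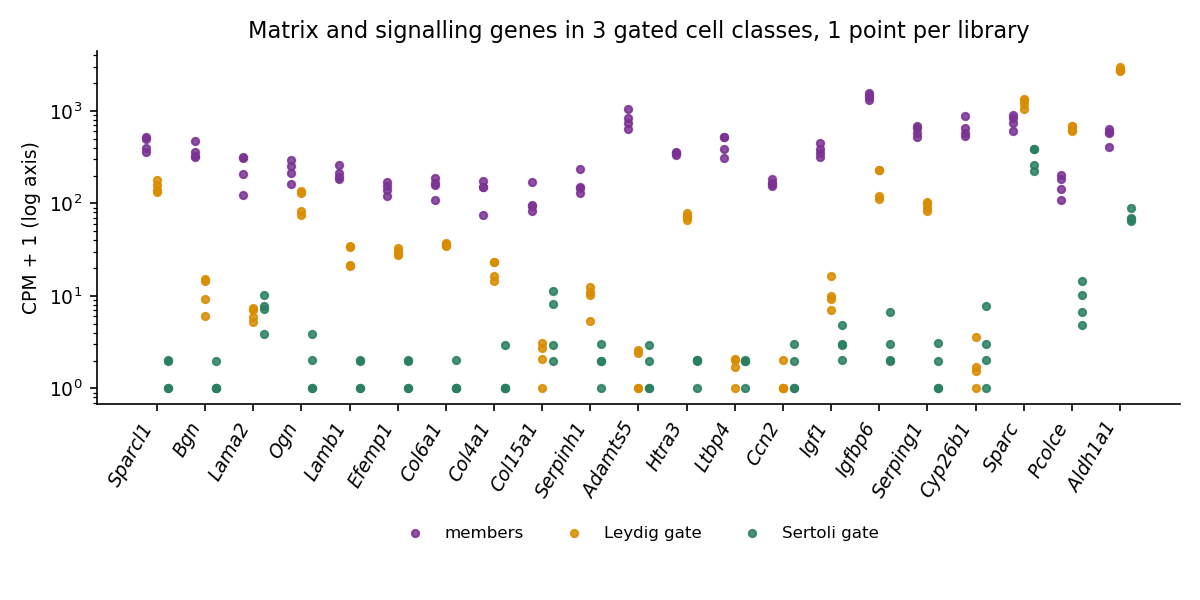
Levels of matrix and signalling genes in members, Leydig cells and Sertoli cells (y axis, CPM + 1, log scale; 1 point per library and class). Adamts5 and Cyp26b1 reach at least 528 CPM in the members of each library and at most 2.63 CPM in the Leydig cells of each.

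Fibroblasts by this gate were rare under both diets. By library the share of kept cells was 0.406% (95% Clopper-Pearson interval 0.306 to 0.528), 0.425% (0.325 to 0.545), 0.439% (0.341 to 0.558) and 0.507% (0.399 to 0.637). Both HFD libraries lay below both ND libraries, but all 4 intervals, which cover counting error only, overlapped. HFD libraries averaged 0.415% ± 0.013 (SD, n = 2) and ND libraries 0.474% ± 0.048. On the log2 scale the difference was -0.19, and the two-sided exact permutation p was 0.3333, the lowest value possible with 2 libraries against 2.

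The direction depended on the depth of the cells and on the denominator. With only cells of at least 1638 UMIs, the highest of the 4 lower limits, 55, 53, 42 and 49 members remained, or 0.406, 0.398, 0.343 and 0.408% of the cells, and the log2 ratio was 0.10 (exact permutation p 1). After every cell was thinned to 1000 UMIs, 27, 27, 43 and 47 cells met the rule and the ratio was -0.64. As a share of members plus Leydig and Sertoli cells, members made up 10.99% in HFD and 9.71% in ND. That denominator moved with the diet labels too, since the gates held 240, 283, 433 and 430 Leydig cells and 207, 209, 222 and 226 Sertoli cells.

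**Figure D3:**
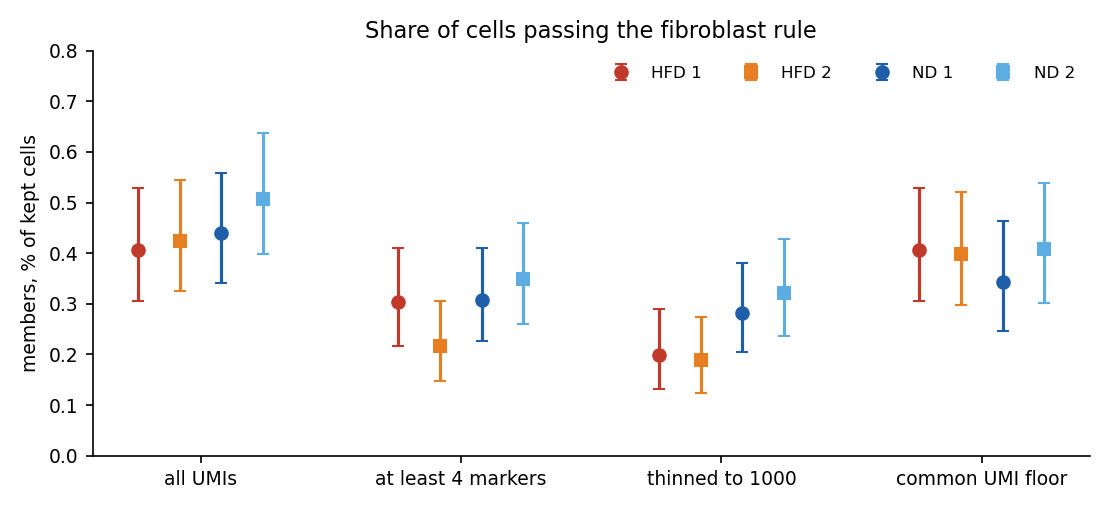
Members as a percentage of cells per library (y axis) under the rule as given, with at least 4 markers, after thinning to 1000 UMIs and with a common floor of 1638 UMIs; bars are 95% Clopper-Pearson intervals. The HFD libraries lie below the ND libraries after thinning, and with the common floor the 4 values overlap between 0.343 and 0.408%.

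Between the diets, no gene passed the test within members. Of 3479 genes tested with edgeR (quasi-likelihood test on UMI sums over members, 2 libraries against 2), 0 had a Benjamini-Hochberg adjusted p under 0.05 (0%). DESeq2 and limma also called 0. Without adjustment, 83 genes (2.39%) lay below 0.05 and were higher in HFD and 153 (4.4%) lower, 236 in all, and DESeq2 gave 29 such genes and limma 232. The lowest edgeR adjusted p, 0.129, belonged to Cypt4, a spermatid gene with 32, 26, 86 and 83 UMIs that was more abundant in the other kept cells (727 CPM) than in members (333 CPM). Several alternatives called 2 to 9 genes, among them the spermatid genes Cypt4 and Tnp2. After thinning, edgeR also called the matrix gene Sparc (log2 ratio -0.97, SE 0.21, adjusted p 0.0327). Below, differences between the diets are therefore given as values.

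The collagen and matrix glycoprotein lists had median ratios below 0. For the collagens this held in all 23 settings, which draw on the same 4 libraries, and for the glycoproteins it did not. The 5 further collagens tested had a median log2 ratio of HFD over ND of -0.42, against 0.00 for all genes tested, and 0 were called. Col6a1 had 156, 107, 188 and 164 CPM (log2 ratio -0.42, SE 0.30), and Col4a1, a basement membrane chain, 149, 73.9, 176 and 149 CPM. Among genes with at least 10 UMIs in members, both HFD libraries lay below both ND libraries for 3 of 9 collagens and above for 1, where the shares over all 8954 such genes were 17.3% below and 17.7% above. The 13 matrix glycoproteins tested had a median of -0.16, with Sparc at 603, 738.5, 841 and 911 CPM (-0.40, SE 0.16) and Sparcl1 at 393, 363, 527 and 492 CPM (-0.44, SE 0.19). Both genes had lower values in each HFD library than in either ND library. Bgn went the other way, with 359, 477, 326 and 313 CPM (0.38, SE 0.21) and both HFD libraries above both ND libraries. The basement membrane chain Col4a2 had a ratio of 0.12 (SE 0.38). Without overlap were 5 of 23 glycoproteins below and 4 above, near the shares of all genes. The glycoprotein median turned to 0.17 without HFD 2 and to 0.05 without ND 1.

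Collagen processing genes had a median of -0.27 over 6 tested, and Pcolce had 142, 107, 201 and 183 CPM (-0.63, SE 0.29). The 7 proteases and inhibitors had a median of 0.02. Adamts5, with the values given above, had a log2 ratio of 0.44 (SE 0.17) and both HFD libraries above both ND libraries. TGF-β and contractile genes had a median of -0.24 over 7 tested, and Ltbp4 and Ccn2 differed by -0.11 and 0.05. The processing median turned to 0.14 without HFD 2 and to 0.15 without ND 1, and the TGF-β median to 0.03 without ND 1. Of genes with at least 10 UMIs, 2 of 13 processing genes, 0 of 11 proteases and 2 of 14 TGF-β genes lay below without overlap, and 2, 2 and 1 above. Over all genes of that depth 17.3% lay below and 17.7% above, so these 3 lists lay near or under those shares.

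Growth factor genes were centred on 0 (median -0.02, 12 tested), with Igfbp7 the lowest and Nr3c1 the highest of those tested. Igfbp7 (chromosome 5, 77349240 to 77408041) had 70, 88, 135 and 160 UMIs, or 474, 591, 847 and 771 CPM. The diets differed by -0.61 on the log2 scale (SE 0.17), with an edgeR p of 0.411 after Benjamini-Hochberg adjustment. Both HFD values were lower than both ND values. The ratios of Igf1, Igfbp4 and Igfbp6 were -0.05 (SE 0.21), 0.01 (SE 0.24) and -0.16 (SE 0.14). Nr3c1, the glucocorticoid receptor, had 156, 101, 75.3 and 72.3 CPM (0.78, SE 0.37). In this list 6 of 24 genes were below without overlap and 4 above, not far from the 17.3% and 17.7% of all genes.

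Genes of lipid handling had a median of 0.05 over 11 tested, with 5 of 30 genes below without overlap and 3 above (all genes 17.3% and 17.7%). Apoe had 2303, 2551, 1989 and 1755 CPM (0.36, SE 0.14), both HFD libraries above both ND libraries. Cebpd, a transcription factor of stress and adipogenesis, had 406, 141, 132 and 149 CPM (0.93, SE 0.36), but 27 of its 60 UMIs in HFD 1 came from 1 cell. Without HFD 1 its log2 ratio was -0.02. Fabp3, Pnpla2, a triglyceride lipase, and the lipoprotein receptor Lrp1 had ratios of -0.02, 0.05 and -0.24.

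In the antioxidant and folding list, Mt2 was the 1 gene with an unadjusted p under 0.05. It encodes a metallothionein (chromosome 8, 94172664 to 94173568) that binds zinc and copper, and it had 93, 101, 73 and 73 UMIs, or 630, 678, 458 and 352 CPM (0.69, SE 0.18; edgeR, Benjamini-Hochberg adjusted p 0.411). Its level in the other kept cells was 646 CPM, higher than the member mean of 529.5 CPM. Mt1, a second metallothionein, had a ratio of -0.02. The list had a median of 0.05 over 21 tested, with 4 of 28 genes below without overlap and 12 above (42.9%), beside 17.3% and 17.7% of all genes. With a common UMI floor the count above was 11 of 28 (all genes 18.0%), and after thinning it was 4 of 26 (all genes 17.3%).

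Retinoid genes were mostly lower in value in HFD, with a median of -0.45 over 5 tested and 4 of 7 genes (57.1%, all genes 17.3%) below without overlap. Without members carrying endothelial or immune markers the count was 2 of 7 (28.6%, all genes 18.4%) and the median -0.17, as it was without HFD 1. Cyp26b1 had the values given above and a log2 ratio of -0.47 (SE 0.18). Aldh1a1 had a ratio of 0.26. Complement genes had a median of -0.11 over 6 tested, and of -0.43 to -0.09 with 1 library left out. C3, the central complement protein, had 94.8, 67.1, 169 and 125 CPM (-0.85, SE 0.35). Serping1 and C1s1 were at -0.02 and -0.07. Without overlap, 3 of 11 complement genes were below and 1 above (all genes 17.3% and 17.7%).

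Cytokine and adhesion genes had a median of 0.07 over 5 tested, with 1 of 14 below without overlap and 2 above (all genes 17.3% and 17.7%). Cxcl12, the chemokine that retains haematopoietic cells in stroma, had 176, 235, 207 and 183 CPM, and Vcam1 had 271, 134, 269.7 and 299 CPM. Ptgds, a prostaglandin synthase, had 5, 9, 4 and 59 UMIs, of which 31 in ND 2 came from 1 cell, and it did not pass the filter on low counts. With no filter, edgeR called Ptgds (log2 ratio -1.86, SE 0.42, adjusted p 0.0325). Immediate early genes, which dissociation can induce, had a median of -0.20 over 14 tested, with 2 of 24 below without overlap and 2 above, both under the shares of all genes.

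Of 37 interferon-induced genes with any UMI in members, both HFD libraries lay below both ND libraries for 20 (54.1%, all genes 13.3%) and above for 4 (10.8%, all genes 14.8%). They encode antiviral proteins that many cells switch on through the interferon receptors and STAT factors. Among genes with at least 10 UMIs, 17 of 26 lay below (65.4%) and 3 above (11.5%), beside 17.3% and 17.7% over all genes of that depth. Of those 17, 14 had fewer than 10 UMIs in the HFD libraries together and reached the floor with their ND counts, so this count is a description of the genes that passed. With at least 10 UMIs asked of each diet, 6 genes were left, 3 below and 2 above. These other floors were chosen after seeing the data. Only 8 of the 39 listed genes were abundant enough to be tested, and 0 of them passed. Of these 8, Ifit3, Ifi27l2a, Bst2 and Iigp1 had fewer than 10 UMIs in both HFD libraries and passed the filter through ND alone, so the median of the 8, -0.74 on the log2 scale (-1.46 to -0.25 over the alternatives), is given with no weight.

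Ifit3, of the IFIT family of antiviral proteins, had 3, 0, 12 and 22 UMIs, found in 3, 0, 10 and 18 members. The diets differed by -3.11 on the log2 scale (SE 0.76), with an edgeR p of 0.341 after Benjamini-Hochberg adjustment. With no filter on low counts Ifit3 was past the threshold (adjusted p 0.011). It was also called with at least 10 UMIs in every library of 1 diet (0.0122), a filter that it met through ND alone, so that call is no support. With 3 and 0 UMIs in HFD the size of the ratio is poorly fixed, and over the settings in which it was tested it lay between -7.00 and -2.15. The edgeR, DESeq2 and limma adjusted p ranged from 0.011 to 1.00.

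Ifit1, of the same family and also on chromosome 19, had 3, 2, 9 and 23 UMIs. Ifi27l2a, a small interferon-induced protein (chromosome 12, 103442167 to 103443680), had 4, 2, 20 and 15 UMIs (-2.22, SE 0.60). Bst2, tetherin, which holds budding viruses at the cell surface, had 7, 8, 22 and 21 UMIs (-1.22, SE 0.42). In each of these genes both HFD libraries were lower than both ND libraries. The interferon-induced GTPase genes were mixed. Gbp7 had 2, 2, 11 and 13 UMIs, Gbp3 had 0, 0, 6 and 7, and Iigp1 had 9, 5, 21 and 16 (-1.11, SE 0.47). Of 3 rarer ones, Gbp2 had 4, 1, 2 and 2 UMIs, Igtp had 0, 2, 1 and 2, and Irgm1 had 0, 2, 4 and 3. Gbp2 and Igtp overlapped between the diets. Irf7, a transcription factor that amplifies the response, had 1, 2, 8 and 10 UMIs.

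The antigen presentation genes of the list differed in direction among themselves. B2m, the light chain of MHC class I, had 51, 47, 38 and 53 UMIs (log2 ratio 0.40, SE 0.22), and the heavy chain H2-D1 had 20, 23, 12 and 17 (0.86, SE 0.33). H2-K1, a second heavy chain, had 13, 16, 20 and 26 UMIs (-0.37, SE 0.33), with both HFD libraries below both ND libraries. Near-identical MHC genes may exchange reads, so the heavy chains are uncertain. Ifitm3, an endosomal restriction factor, was the most abundant gene of the list and had 447, 449.8, 684 and 448 CPM.

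UMIs of the interferon-induced list came from many cells. The whole list summed to 1531, 1470, 2334 and 2069 CPM. Without the 4 most abundant genes of the list (Ifitm3, B2m, H2-D1 and H2-K1), the other 35 had 76, 66, 193 and 240 UMIs in sum, or 515, 443, 1211 and 1157 CPM. Among the 4 left out, B2m (345, 316, 238 and 256 CPM) and H2-D1 (135, 154, 75.3 and 82.0 CPM) were higher in both HFD libraries. The diets therefore lay further apart in ratio for the 35 genes than for the whole list. At least 1 UMI of the 35 genes was found in 33 of 55, 34 of 61, 51 of 67 and 61 of 74 members. Leaving out the 3 members with most such UMIs in each library gave 346, 317, 1053 and 1188 CPM. With a common UMI floor, 16 of 23 genes lay below without overlap (all genes 17.6%), after thinning 11 of 15 (18.2%), and without members that carried endothelial or immune markers 15 of 21 (18.4%). In these counts too, genes could meet the lower limit on their UMIs in members with their ND counts alone. The counts describe the genes that passed and do not show whether the pattern holds in these settings. The summed macrophage markers (6.77, 13.4, 18.8 and 24.1 CPM), Sertoli markers (67.7, 73.9, 94.1 and 116 CPM), myoid markers (189.6, 161, 408 and 207 CPM), pericyte markers (20.3, 26.9, 81.5 and 28.9 CPM), endothelial markers (27.1, 33.6, 81.5 and 33.8 CPM) and spermatogonia markers (6.77, 0, 18.8 and 14.5 CPM) were also lower in both HFD libraries. So were 6 of the 8 selecting genes, beside 17.3% of all genes with at least 10 UMIs. Those 8 genes chose the cells, so their count is a description. Also lower were their whole sum (6529, 6130, 7252 and 6774 CPM) and the members' median share of mitochondrial UMIs (1.43, 1.04, 1.60 and 1.56%). The part of these in the interferon values was not tested.

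**Figure D4:**
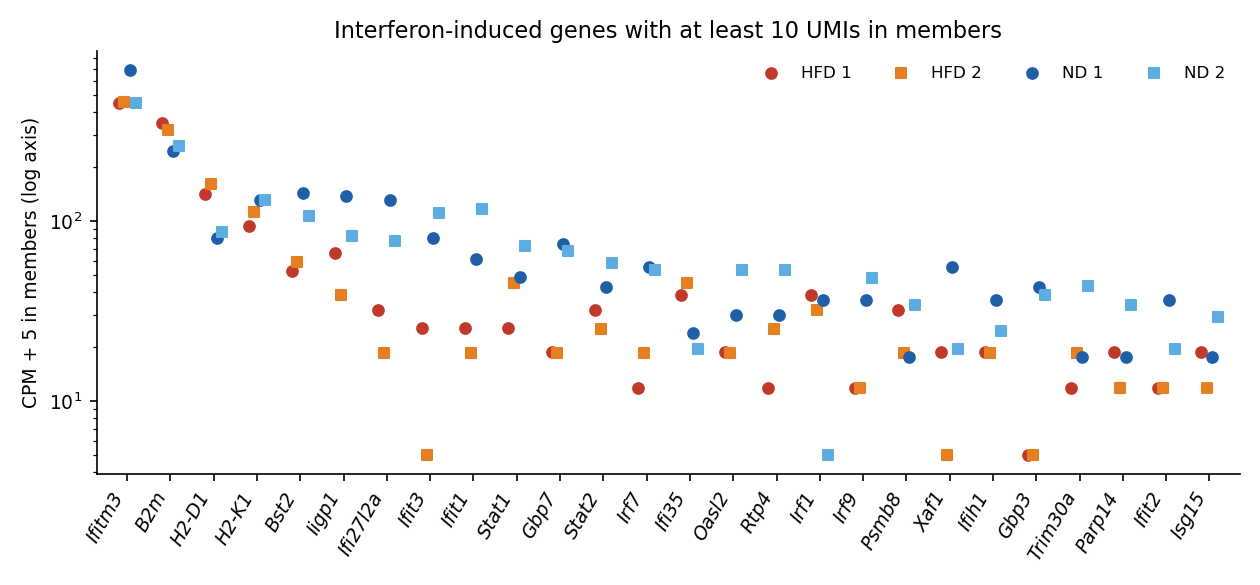
Interferon-induced genes with at least 10 UMIs in members (y axis, CPM + 5, log scale; 1 point per library). Both HFD libraries lie below both ND libraries for 17 of the 26 genes, and above for 3. Of those 17, 14 had fewer than 10 UMIs in the HFD libraries together.

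The promoters of these genes are shown because the response acts through a short element in them, the interferon-stimulated response element. The 250 bases before the RefSeq transcription start (GRCm38.p6) were searched on both strands, overlaps allowed, for 2 copies of GAAA with 2 bases of any kind between them. Of the 39 listed genes, 31 had a promoter in the table and 15 held the motif, whereas 3.46% of the 27025 gene symbols in the table did. A match is a description of these letters and no measurement of binding. The sequences of 4 genes with low values in HFD follow, 5′ to 3′ on the strand of the gene, with matches in capitals.
Ifit3: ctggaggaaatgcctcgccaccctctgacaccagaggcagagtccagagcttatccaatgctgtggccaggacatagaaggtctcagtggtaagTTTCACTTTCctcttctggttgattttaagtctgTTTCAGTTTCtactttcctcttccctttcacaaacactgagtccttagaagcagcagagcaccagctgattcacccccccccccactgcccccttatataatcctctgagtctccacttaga
Ifit1: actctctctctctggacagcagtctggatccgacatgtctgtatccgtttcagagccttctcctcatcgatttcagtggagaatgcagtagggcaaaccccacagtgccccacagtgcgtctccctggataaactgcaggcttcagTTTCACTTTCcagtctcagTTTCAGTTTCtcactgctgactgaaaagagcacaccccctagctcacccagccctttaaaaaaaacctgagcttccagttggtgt
Bst2: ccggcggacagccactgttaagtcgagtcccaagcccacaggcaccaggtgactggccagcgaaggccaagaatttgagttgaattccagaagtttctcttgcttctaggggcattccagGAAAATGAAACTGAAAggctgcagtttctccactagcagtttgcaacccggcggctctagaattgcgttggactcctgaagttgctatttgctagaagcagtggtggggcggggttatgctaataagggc
Gbp7: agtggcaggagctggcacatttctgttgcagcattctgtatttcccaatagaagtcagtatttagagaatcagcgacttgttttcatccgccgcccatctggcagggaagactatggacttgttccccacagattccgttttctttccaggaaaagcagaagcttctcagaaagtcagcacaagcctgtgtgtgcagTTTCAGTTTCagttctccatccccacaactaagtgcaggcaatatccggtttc

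Ifit3 (chr19:34583279-34583528, plus strand) held 2 matches on the opposite strand, 156 to 147 and 122 to 113 bases before the start. Ifit1 (chr19:34640639-34640888, plus strand) also held 2, at 104 to 95 and 85 to 76 bases. Bst2 (chr8:71537473-71537722, minus strand) held 2 overlapping matches on the strand of the gene, 130 to 121 and 124 to 115 bases before the start, and these form 1 run of capitals. Gbp7 (chr3:142530086-142530335, plus strand) held 1, at 53 to 44 bases. B2m, whose values did not go down with HFD, also held the motif, and Irf7 did not hold it.

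By size, the other genes with unadjusted p under 0.05 and no overlap included few that were more abundant in members than in the other kept cells. Higher in value in HFD were Itga9, an integrin chain (14, 14, 6 and 8 UMIs, log2 ratio 1.28, SE 0.48), the CREB coactivator Crtc3 (10, 12, 6 and 5 UMIs, 1.27, SE 0.57) and the transcription factor Klf7 (17, 14, 6 and 10 UMIs, 1.24, SE 0.45). Their levels were 52.4, 71.9 and 112 times those of the other kept cells. Ecpas, a proteasome adaptor, was 3.78 times as abundant in members as elsewhere, and Birc2, Dtnbp1, Phc1, Gm3787, Xrcc1 and Trappc4 were near or below the level elsewhere. On the lower side, only Ifit3 and Ifi27l2a were above the level of the other cells by a wide margin (86.5 and 39.5 times). Trp53tg5, Spn-ps, Odf3, Ascc2, 4933421O10Rik, Nabp1, Isca1 and Tmem247 had 0.457 to 1.07 times that level. Apart from Tmem247, the genes of this paragraph passed the filter on low counts only through the diet in which they were higher. Their ratios are therefore given with no weight.

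Whether the diets differed by another amount in members than in Leydig cells was tested as an interaction of diet and class. The member and Leydig sums come from the same libraries, and this fit takes them as independent. Of 11759 genes, 3 passed (0.0255%), of which Meg3 alone passed with the library as a block, and each had a change in Leydig cells that was larger than in members. Meg3, a maternally expressed long noncoding RNA (chromosome 12, 109541001 to 109571726), had 461, 551, 502 and 482 CPM in members and 106, 114, 272 and 223 CPM in Leydig cells. Its log2 ratio of HFD over ND was 0.03 in members and -1.18 in Leydig cells, a difference of 1.21 (SE 0.21; edgeR, Benjamini-Hochberg adjusted p 0.00296). Igfbp6 (chromosome 15, 102144362 to 102149511), with the member values given above, had 109, 120.3, 230.2 and 230.3 CPM in Leydig cells, a difference of 0.85 (SE 0.16; edgeR, adjusted p 0.00715). Ifitm3 (chromosome 7, 141009586 to 141010770) had 39.8, 44.7, 123 and 108 CPM in Leydig cells, a difference of 1.14 (SE 0.23; edgeR, adjusted p 0.0266).

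In Leydig cells both HFD libraries were below both ND libraries for each of the 3 genes, while in members the diets overlapped for Meg3 and Ifitm3. All 3 were more abundant in members than in Leydig cells. The selecting gene Dcn, described with no test, had -0.06 in members and -1.23 in Leydig cells, a difference of 1.17 (SE 0.23). For Mgp, Col1a2, Gsn and Serping1 the differences were 2.52 (SE 1.00), 0.22 (SE 0.34), -0.23 (SE 0.18) and 0.23 (SE 0.20). The part of fibroblast RNA in the Leydig values was not tested. The share of Leydig cells that carried a UMI of Dcn, Mgp or Col1a2 was 12.5, 10.2, 19.9 and 23.3%. Without those Leydig cells the differences were 1.20, 0.79 and 0.96 for Meg3, Igfbp6 and Ifitm3, and only Meg3 was called. With the library as a block the adjusted p of Meg3 was 0.0119 and that of both others 0.0677. Leaving out 1 library at a time, Meg3 passed without HFD 1 and no gene passed without HFD 2, ND 1 or ND 2. For other interferon-induced genes the ratios of the classes did not differ by the test. Ifit3, for example, had -3.11 in members and -3.50 in Leydig cells, each class fitted alone. The joint fit gave a difference of 0.28 (SE 0.95).

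Members fell into 4 sub-clusters, described here without tests because the same genes formed them. Sub-cluster 1 (78 cells) was led by Itga9, Sct, S100b, Ptgis, Mmd2, Ccn2, Meg3, Thbd, Ptch1, the Hedgehog receptor, and Heg1. Meg3 reached 1101 CPM in it against 291 in the other members, and the fibroblast markers outside the gate summed to 8047 CPM, the highest of the 4.

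Sub-cluster 2 (62 cells) was led by immediate early genes, which also mark the stress of dissociation. Fos stood at 886 CPM against 49.2 in the other members and Jun at 1012 against 73.9, followed by Fosb, Socs3, Zfp36, Hspa1a, Btg2, Junb and Cebpd, with the complement gene C3 at 428 against 36.0. It had the highest sum of the selecting genes (12899 CPM). Its share of members was 9.09, 24.6, 26.9 and 32.4% (5, 15, 18 and 24 cells). Both HFD values lay below both ND values, but HFD 2 and ND 1 were close, and these counts are small.

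Sub-clusters 3 and 4 were led by germ-cell genes. In sub-cluster 3, however, the spermatid genes summed to 18834 CPM, below the 24909 CPM of the other members. Sub-cluster 3 (95 cells) had 1700102P08Rik, Prok2, Pou5f2 and Cdc20 in front and still carried 5335 CPM of the selecting genes. It made up 45.5, 42.6, 26.9 and 35.1% of members (25, 26, 18 and 26 cells). Both HFD values lay above both ND values, again on small counts. Sub-cluster 4 (22 cells) had a median of 5348 UMIs, spermatid genes at 45499 CPM in sum and the selecting genes at 2084 CPM, and all 4 members called doublets lay in it. Its leading genes, among them Arrdc5, Lyzl6 and Spata31, are genes of late germ cells. Without sub-cluster 4, 17 of 24 interferon-induced genes lay below without overlap (all genes 17.3%), and without both, 11 of 19 (17.4%). Genes could meet the lower limit on their UMIs in members with their ND counts alone. These counts therefore describe the genes that passed, and do not show whether the pattern holds without the germ-led cells.

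**Figure D5:**
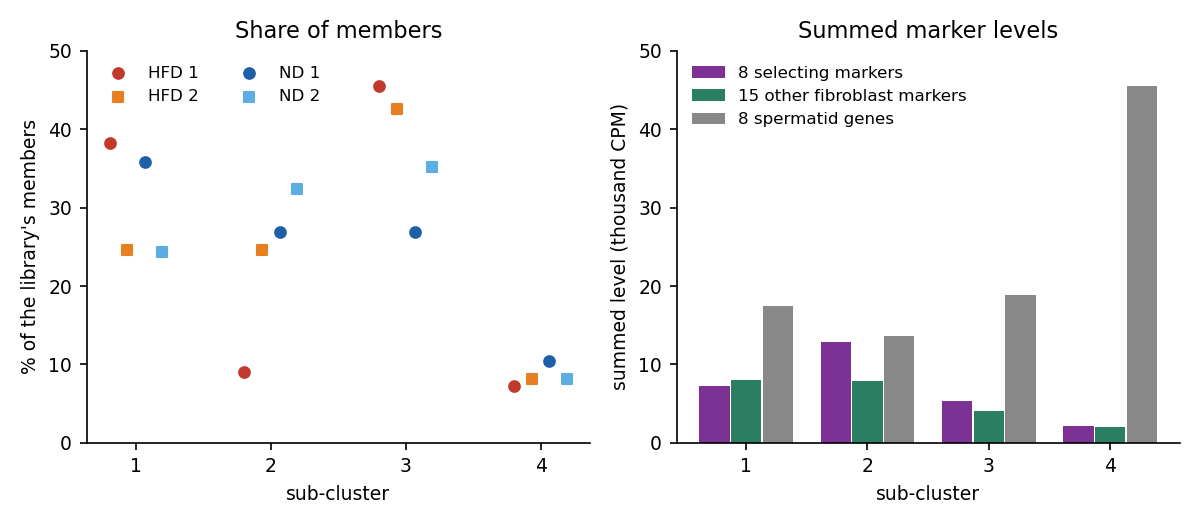
Left, percentage of each library's members in the 4 sub-clusters; right, summed levels of the selecting genes, of the fibroblast markers outside the gate and of the spermatid genes in each sub-cluster (in units of 1000 CPM). Sub-cluster 4 is the highest in spermatid genes and the lowest in both fibroblast lists.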

How the data were processed

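Droplet single-cell RNA sequencing was measured in 4 libraries of dissociated mouse testis, 2 per diet, grouped by the treatment label. The authors deposited matrices of unnormalised UMI counts, genes by cell barcodes, written by software version 3.0.2 per the file headers, with genome build mm10 per the submitters' processing notes. The aligner, the gene annotation and the calling of cells are not given in the sources used here. Gene coordinates are from GENCODE M21 (GRCm38) and promoters from RefSeq (GRCm38.p6), matched by symbol. A second, dense copy of the counts was not used here.

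The members and gene lists were chosen with earlier results of these data known. UMI counts were summed per library over members, over Leydig cells and over Sertoli cells (Python 3.11.15, pandas 2.3.3, scipy 1.17.1). The Leydig gate asked for at least 20 per 10000 UMIs of Insl3, Cyp17a1 and Cyp11a1 and 3 of 6 steroidogenic markers; the Sertoli gate for 3 of 8 markers and a sum of 10 per 10000. Genes were tested with edgeR 4.0.16 in R 4.3.3 (filterByExpr, TMM factors, quasi-likelihood test), two-sided, with Benjamini-Hochberg adjustment over all genes tested and a threshold of 0.05. DESeq2 1.42.0 and limma 3.58.1 on log2(CPM + 1) were alternatives. The class comparisons had the library as a block, and the interaction treated the 2 sums of a library as independent. Doublets were called with Scrublet in scanpy 1.11.5 at an expected rate of 0.1 and kept; leaving them out was an alternative. Sub-clusters came from Leiden clustering at resolution 0.5 on 1000 variable genes and 10 components (igraph 0.11.9). The scripts were tested on simulated counts.

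Named were all selecting genes; in each list the 4 most abundant genes and any with an unadjusted p under 0.05; up to 10 genes per direction in each comparison by size of the log2 difference, without overlap and with at least 50 CPM between diets, or at least 100 CPM in the higher class between classes; the called interaction genes; and genes that lead a sub-cluster. Of these, 1 result is not reported here. Further genes of the lists and markers were picked after their values were seen. Members of a group shared the replicate numbers 1 and 2 in the titles. The deviations of same-numbered libraries had a correlation of 0.034. Counting error weakens such a correlation, so it cannot decide whether the numbers are pairs. They were not taken as pairs, and the replicate block was an alternative.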

Additional observations from a re-analysis of the deposited data

Results flagged for a closer look

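In a fit that takes the member and Leydig sums of 1 library as independent, the diet ratio of 3 genes differed between members and Leydig cells by the test of the interaction. With the library as a block Meg3 alone passed (edgeR adjusted p 0.0119, and 0.0677 for both Ifitm3 and Igfbp6), and without HFD 2, ND 1 or ND 2 no gene passed. The difference in log2 ratio, members minus Leydig cells, was 1.211 for Meg3, 1.141 for Ifitm3 and 0.8543 for Igfbp6. For each gene the Leydig ratio of HFD over ND was the lower one (-1.18, -1.46 and -1.01) and the member ratios were 0.03 (SE 0.18), -0.32 (SE 0.21) and -0.16 (SE 0.14). DESeq2 called Meg3 and Igfbp6 but not Ifitm3 (adjusted p 0.313). Without Leydig cells that carried a UMI of Dcn, Mgp or Col1a2, edgeR called Meg3 alone. The differences were then 1.20 for Meg3, 0.96 for Ifitm3 and 0.79 for Igfbp6.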

How the results depend on the processing

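The share of members had a log2 ratio of -0.19, of -0.34 with at least 4 markers, of -0.64 after thinning to 1000 UMIs, of 0.18 as a share of members, Leydig and Sertoli cells, and of 0.10 with a common UMI floor, which was chosen after seeing the data. Leaving out 1 library gave -0.29 to -0.08. The other alternatives kept the direction of the means. Without members carrying myoid markers the ratio was -0.11, and HFD 2 (0.383%) lay above ND 1 (0.374%). Without members carrying endothelial or immune markers it was -0.13, and HFD 2 (0.390%) lay above ND 1 (0.380%).

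The edgeR count of 0 diet genes became 2 with the Leydig limit at 10 per 10000, 9 without members carrying endothelial or immune markers, 4 after thinning, 5 with no filter on low counts, 3 with at least 10 UMIs in every library of 1 diet, and 4 with the common floor. Leaving out 1 library gave 2 to 6. With the replicate block 2 genes were called, Cypt4 and Tnp2. The correlation of 0.034 cannot decide whether the numbers pair the libraries. Leaving out 1 library moved Cebpd between -0.0196 (without HFD 1) and 1.513. Of 76 named genes tested between the diets, 31 changed sign in at least 1 setting, and Cebpd was the 1 of them with an unadjusted p under 0.05. Of the list medians, each over the genes that passed the filter, those of collagens, interferon-induced, complement and retinoid genes stayed below 0 in all 23 settings, and the other 9 changed sign. The main fit is 1 of these settings, and all draw on the same 4 libraries. With at most 10% mitochondrial UMIs the members were the same as in the main fit. A sign kept across the settings is therefore no independent support. The interferon-induced median is given with no weight, since Ifit3, Ifi27l2a, Bst2 and Iigp1 passed the main filter through ND alone. The cause was not tested.

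Against Leydig cells 4366 genes were called, 3077 with DESeq2, and 3589 to 3941 without 1 library. Against Sertoli cells 3240 were called, and 2118 with DESeq2. The interaction count of 3 became 1 with the library as a block, 6 with no filter, 1 without Leydig cells that carried fibroblast UMIs, and 0 to 1 without 1 library. With 1 library left out, the lone library of a diet is assumed to vary like the others. At 147644 to 207397 UMIs per member sum, only 3479 genes passed the filter on low counts.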
